A study of Mus musculus with 4 samples.

Results

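Messenger RNA of 45 genes of mitosis and the G2/M transition was followed in 4 RNA sequencing libraries of embryonic mouse telencephalon. The genes were taken by symbol from a list of 45, and all 45 were found among the 22084 genes of the deposited tables and passed the filter on low counts that left 16252 genes for testing. The list holds the entry machinery of mitosis, its kinases and checkpoint, the anaphase ubiquitin ligase, kinetochore and spindle proteins, cytokinesis proteins and proteins of chromosome structure. The libraries KO26F and KO23M came from embryos of the genotype TCF20-/- and are called KO. WT25F came from an embryo of the genotype TCF20+/+. The labels conflict on WT22M, whose title names it wild type and whose genotype field gives TCF20+/-. Under either label WT22M keeps at least 1 intact allele, so WT25F and WT22M together are called carriers. All embryos were of the mixed strain B6D2F2 at E13.5, during cortical neurogenesis. Titles and tissue fields give telencephalic tissue, while the extraction protocol names cerebral cortex. Neither the deleted stretch of the gene nor the litter of each embryo is stated, so p-values measure only the spread between these samples. The series' design text speaks of WT, HET and KO animals in triplicate, and 4 libraries were analysed here. The comparison asks what loss of Tcf20 does to RNA levels in the embryonic forebrain.

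Cells enter mitosis when the kinase Cdk1, bound to a cyclin, is freed from inhibitory phosphates by Cdc25 phosphatases. Kinetochores then attach chromosomes to spindle microtubules, the spindle checkpoint holds back the anaphase ubiquitin ligase until attachment is complete, and a contractile ring divides the cell. In the embryonic telencephalon these genes are read mainly in dividing cells, the radial glia along the ventricle and the intermediate progenitors above them, and are shut off in neurons. Their level in a piece of tissue therefore follows both the share of dividing cells and the RNA each of them holds, and in bulk RNA fewer cells of a type and less RNA per cell cannot be told apart.

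Library totals were 17791641 to 18509743 counts, and the 45 genes had 205 to 5209 counts each per library. Tcf20 itself, a chromatin-associated regulator of transcription, was read at 97.1 CPM (counts over the library total scaled by its TMM factor) in KO26F and 105 in KO23M, against 117 in WT25F and 113 in WT22M. Both KO libraries were below both carriers, with a log2 fold change of -0.18 (SE 0.10) and an edgeR adjusted p of 1. Reads outside a deleted stretch would still be counted, so this level does not check the labels. In each carrier 1 set of regional markers stood apart: choroid plexus markers were low in WT22M, and thalamus and diencephalon markers were high in WT25F. Without WT25F the median log2 fold change of the 45 genes was 0.17, with 36 above 0, and without WT22M it was 0.14, with 42 above 0.

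The mitosis genes were a little higher in KO telencephalon than in carriers, and no single gene passed the test of the 2 arms. The log2 fold change was above 0 for 45 of 45 genes, against 50.7% of all genes tested, although Cenpa stood at 0.00 and lay just below 0 with RLE size factors. The genes were chosen with earlier results of these data known and share the same libraries, so this count is a description. The median log2 fold change of the 45 was 0.14, against 0.00 over all genes, and the range was 0.00 to 0.33. Added up, the 45 genes took 2914 CPM in KO26F and 2976 in KO23M, against 2656 in WT25F and 2699 in WT22M. The sums averaged 2945 ± 43.9 CPM in KO and 2678 ± 30.4 CPM in carriers (SD, n = 2 each), 9.98% higher in KO. By edgeR's quasi-likelihood test with Benjamini-Hochberg adjustment over all genes, 0 of 45 were called at an adjusted p under 0.05, where 0.0615% of all genes were called, and every adjusted p was 1. At an unadjusted p under 0.05 the test found 4 genes, Mki67, Nusap1, Tpx2 and Kif11, all higher in KO, where 1.42% of all genes were higher at that level. DESeq2 and limma voom also called 0 of 45. Standard errors of 0.10 to 0.17 on the log2 scale stood beside these small differences.

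Both KO libraries lay above both carriers for 22 of 45 genes, against 13.9% of all genes tested. The opposite order, both KO libraries below both carriers, held for 0 of 45 genes, against 2198 of all 16252. The highest of the 4 libraries was KO26F for 22 genes and KO23M for 21, against 27.6% and 25.0% of all genes, and each carrier was highest for 1, against 23.3% for WT25F and 24.0% for WT22M. The lowest was KO26F for 2 genes and KO23M for 1, against 26.7% and 24.5% of all genes, and WT25F for 16 and WT22M for 26, against 22.1% and 26.6%. The gap between libraries of the same arm was of similar size to the difference between arms. The median gap was 0.09 log2 units between the KO libraries and 0.15 between the carriers, and for 16 of 45 genes the fold change exceeded both gaps. The share of all genes that exceeded both gaps was not computed.

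**Figure D1:**
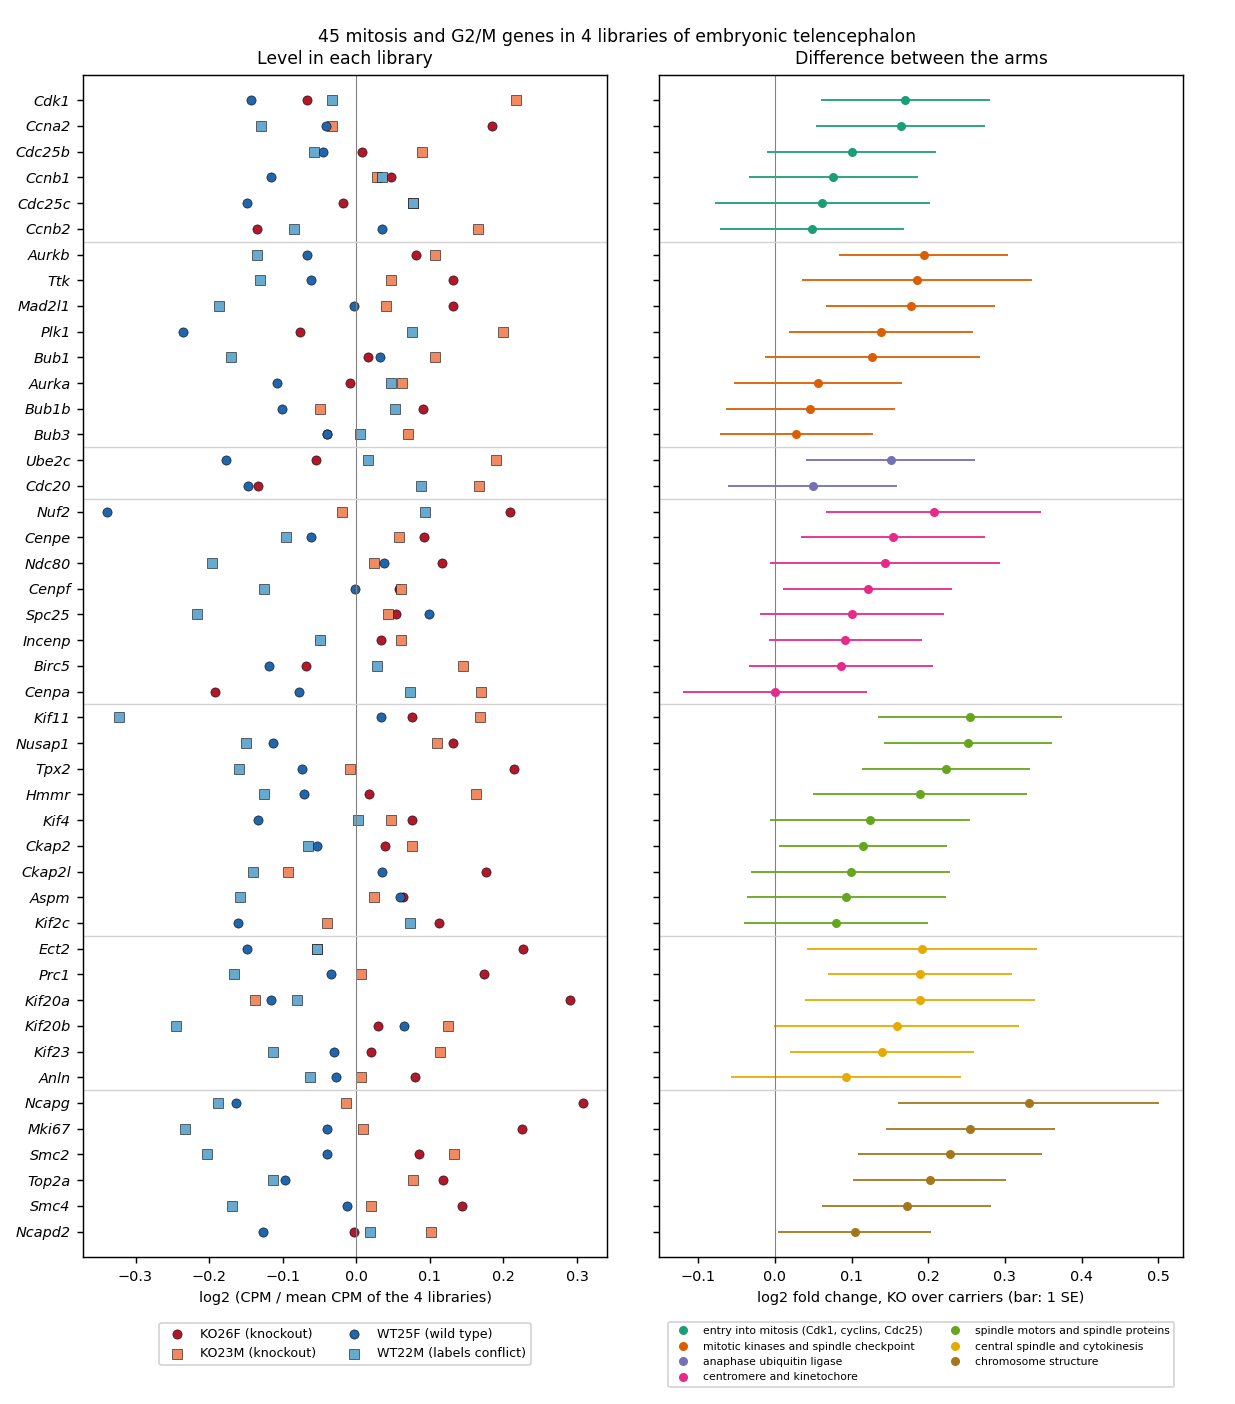
Left, the level of each of the 45 genes in each library as log2 of its CPM over the mean CPM of the 4 libraries; right, the edgeR log2 fold change of KO over carriers with bars of 1 SE, genes grouped by role. The fold changes lie between 0.00 for Cenpa and 0.33 for Ncapg, and WT22M is the lowest library for 26 of the 45 genes.

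Among the 6 genes of entry into mitosis, the median log2 fold change was 0.09, and both KO libraries were above both carriers for 2, Ccna2 and Cdc25b. Their summed level was 355 ± 15.1 CPM in KO and 328 ± 7.01 CPM in carriers (SD, n = 2 each). Cdk1 (chr10:69335146-69352938), the kinase that drives entry, was read at 80.8 CPM in KO26F and 98.4 in KO23M, against 76.6 in WT25F and 82.7 in WT22M. KO23M stood apart as the highest library, and KO26F fell within the range of the carriers. The means were 89.6 ± 12.4 CPM in KO and 79.7 ± 4.33 CPM in carriers, a log2 fold change of 0.17 (SE 0.11). Without KO23M the log2 fold change of Cdk1 was 0.02. Ccna2, cyclin A2, had 65.5 and 56.3 CPM in KO, against 56.0 and 52.7 in carriers, a log2 fold change of 0.16. Ccnb2, a B-type cyclin and named here after its values were seen, had 39.4 CPM in KO26F and 48.5 in KO23M, against 44.3 in WT25F and 40.8 in WT22M. The KO libraries of Ccnb2 lay on either side of the carriers. Ccnb1, the main mitotic cyclin, and the phosphatase Cdc25c had log2 fold changes of 0.08 and 0.06.

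The 8 kinases and checkpoint proteins had a median log2 fold change of 0.13 and a summed level of 474 ± 14.1 CPM in KO and 443 ± 14.0 CPM in carriers (SD, n = 2 each). Aurkb (chr11:69045647-69051664), Aurora B, corrects faulty kinetochore attachments. It was read at 60.5 CPM in KO26F and 61.6 in KO23M, against 54.6 in WT25F and 52.1 in WT22M. The groups did not overlap, and Aurkb had a log2 fold change of 0.19 (SE 0.11), with means of 61.0 ± 0.8 and 53.3 ± 1.75 CPM. Mad2l1, which carries the checkpoint signal, had 46.1 and 43.3 CPM in KO, against 42.0 and 37.0 in carriers, a log2 fold change of 0.18 (SE 0.11). Ttk, the kinase that recruits checkpoint proteins to kinetochores, was the third gene of the group with both KO libraries above both carriers, at a log2 fold change of 0.18. Bub3, a checkpoint scaffold and the gene of the group with the most counts, had 127 and 137 CPM in KO, against 127 and 131 in carriers, so its libraries overlapped and its log2 fold change was 0.03. The polo kinase Plk1 had 68.9 CPM in KO26F and 83.4 in KO23M, against 61.7 in WT25F and 76.6 in WT22M. Within each arm, Plk1 was higher in the library with the letter M in its title. Aurka, Bub1 and Bub1b had log2 fold changes of 0.06, 0.13 and 0.05.

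The anaphase ubiquitin ligase was represented by its activator Cdc20 and its conjugating enzyme Ube2c, which tag securin and cyclin B for destruction. Ube2c (chr2:164769898-164778822) had 160 CPM in KO26F and 189.5 in KO23M, against 147 in WT25F and 168 in WT22M, a log2 fold change of 0.15 (SE 0.11). Cdc20 had 108 CPM in KO26F and 133 in KO23M, against 107 in WT25F and 126 in WT22M, a log2 fold change of 0.05. For both genes the M library was the higher of each arm and the arms overlapped. Per kilobase of annotated exon, Ube2c at 63.9 CPM and Cdc20 at 63.3 CPM were the highest of the 45 genes, averaged over the 4 libraries, and Anln and Ncapg at 1.88 CPM were the lowest.

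Of the 8 centromere and kinetochore genes, both KO libraries were above both carriers for 3, and the median log2 fold change was 0.11. Incenp, the scaffold that places Aurora B at the centromere, had 108 and 110.1 CPM in KO, against 102 and 102 in carriers, a log2 fold change of 0.09 (SE 0.10). Cenpe, a kinetochore motor, and Cenpf were the other 2 genes whose arms did not overlap, at log2 fold changes of 0.15 and 0.12. Cenpa, the histone variant that marks the centromere, had 68.8 CPM in KO26F and 88.4 in KO23M, against 74.5 in WT25F and 82.7 in WT22M. Its means were equal, and the KO libraries were its lowest and its highest. Nuf2, Ndc80 and Spc25 are subunits of the same microtubule-binding complex of the kinetochore. Nuf2 had 40.2 CPM in KO26F and 34.3 in KO23M, against 27.5 in WT25F and 37.1 in WT22M, and 1 carrier, WT25F, was well below the other 3 libraries. Ndc80 had a log2 fold change of 0.14 and Spc25 of 0.10, and in both WT22M was the lowest library, at 18.2 and 34.5 CPM. Birc5, survivin, had a log2 fold change of 0.09.

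The 9 spindle motors and spindle proteins took 451 ± 15.6 CPM in KO and 398 ± 14.6 CPM in carriers (SD, n = 2 each), 13.3% higher in KO, and both KO libraries were above both carriers for 6 of them. Nusap1 (chr2:119618298-119651244), which bundles spindle microtubules near chromosomes, was read at 70.0 CPM in KO26F and 69.0 in KO23M, against 59.1 in WT25F and 57.6 in WT22M. Libraries of 1 arm were close together and the arms did not overlap. The means were 69.5 ± 0.687 CPM in KO and 58.3 ± 1.01 CPM in carriers, a log2 fold change of 0.25 (SE 0.11, edgeR unadjusted p = 0.0285, adjusted p = 1). Tpx2 (chr2:152847964-152895321), which activates Aurora A and seeds microtubules, had 116 and 99.4 CPM in KO, against 95 and 89.5 in carriers. Its arms did not overlap either, at a log2 fold change of 0.22 (SE 0.11, edgeR unadjusted p = 0.0451), and 0.10 without KO26F. Kif11 (chr19:37376403-37421859), the motor that pushes spindle poles apart, had 66.7 CPM in KO26F and 71.1 in KO23M, against 64.8 in WT25F and 50.6 in WT22M. The low value of WT22M made most of the difference of Kif11, whose log2 fold change of 0.26 (SE 0.12, edgeR unadjusted p = 0.0457) compares with 0.09 without WT22M. Kif4, Ckap2 and Hmmr were the other genes of the group without overlap, at log2 fold changes of 0.12, 0.12 and 0.19. Aspm, a spindle pole protein tied to human microcephaly, had a log2 fold change of 0.09, Ckap2l of 0.10 and the microtubule depolymerase Kif2c of 0.08, with overlapping arms.

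The 6 genes of the central spindle and cytokinesis had a median log2 fold change of 0.17, at 163 ± 9.9 CPM in KO and 145 ± 5.0 CPM in carriers (SD, n = 2 each) in sum. Prc1 (chr7:80294450-80316259) crosslinks the antiparallel microtubules of the central spindle. Prc1 had 44.8 and 39.9 CPM in KO, against 38.8 and 35.4 in carriers, without overlap, and a log2 fold change of 0.19 (SE 0.12). Kif23, the motor of the centralspindlin complex, and Anln, a scaffold of the contractile ring, also lay above both carriers in both KO libraries, at log2 fold changes of 0.14 and 0.09. Kif20a had 26.9 CPM in KO26F and 20.0 in KO23M, against 20.3 in WT25F and 20.8 in WT22M, so its log2 fold change of 0.19 rested on KO26F. Ect2, which activates RhoA at the division plane, had 26.6 and 21.9 CPM in KO, against 20.5 and 21.9 in carriers, with a similar pattern. Kif20b had a log2 fold change of 0.16, with WT22M as its lowest library at 13.4 CPM.

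The 6 genes of chromosome structure had the highest median of the 7 role groups, 0.22 on the log2 scale, and both KO libraries were above both carriers for 5 of them. Their summed level was 777 ± 14.0 CPM in KO and 687 ± 4.11 CPM in carriers (SD, n = 2 each), 13.1% higher in KO. Mki67 (chr7:135689784-135716361), whose protein Ki-67 coats mitotic chromosomes and marks dividing cells, was read at 173 CPM in KO26F and 149 in KO23M, against 144 in WT25F and 126 in WT22M. The arms did not overlap, but the lower KO library and the higher carrier were close. The means of 161 ± 16.8 CPM in KO and 135 ± 13.0 CPM in carriers gave a log2 fold change of 0.25 (SE 0.11, edgeR unadjusted p = 0.0255, adjusted p = 1). Top2a (chr11:98992943-99024189), the topoisomerase that untangles sister chromatids, had 209 and 203 CPM in KO, against 180.1 and 178 in carriers. Top2a had a log2 fold change of 0.20 (SE 0.10) and a clear gap between the arms. Condensin folds chromosomes for division, and Smc2, Smc4, Ncapd2 and Ncapg are subunits of condensin I. Ncapg had a log2 fold change of 0.33 (SE 0.17), the highest of the 45 with all 4 libraries, with 16.5 and 13.2 CPM in KO, against 11.9 and 11.7 in carriers. Without KO26F it was 0.16 for Ncapg, 0.14 for Mki67 and 0.18 for Top2a. Smc2 had 35.9 and 37.1 CPM in KO, against 32.9 and 29.4 in carriers, and Smc4 had 86.3 and 79.2 CPM in KO, against 77.4 and 69.5 in carriers. Neither Smc2, at a log2 fold change of 0.23, nor Smc4, at 0.17, overlapped between the arms. Ncapd2, the gene of the group with the most counts, had 266 and 286 CPM in KO, against 244 and 270 in carriers, an overlap, and a log2 fold change of 0.10.

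Promoters of genes of late G2 and mitosis often carry CCAAT boxes, bound by NF-Y, and a CHR element (TTTGAA or TTTAAA), bound by complexes that switch these genes off outside the cell cycle and on before mitosis. The RefSeq table for GRCm38.p6 gave 41 windows of 300 bases, from 250 before to 50 after a gene start, for 38 of the 45 genes. Exact letters were searched on both strands. CCAAT was in 33 of 41 windows (80.5%), against 37.4% of all 32851 windows, and in at least 2 places in 22 windows (53.7%), against 11.5%. TTTGAA was in 33 of 41 windows (80.5%), against 17.9% of all windows, and TTTGAA or TTTAAA in 36 (87.8%), against 27.6%. Any of the E2F-like letters TTTGGCGC, TTTCCCGC, TTTCGCGC and TTTGCCGC was in 3 windows (7.32%), against 2.26%. A match is a description of the letters, and binding was not measured. The bases upstream of the start are printed for the 6 genes with the smallest unadjusted p that had a window. Capitals mark CCAAT and the CHR letters on either strand (ATTGG and TTCAAA are the reverse strand).
Mki67, chr7:135716380-135716579, minus strand: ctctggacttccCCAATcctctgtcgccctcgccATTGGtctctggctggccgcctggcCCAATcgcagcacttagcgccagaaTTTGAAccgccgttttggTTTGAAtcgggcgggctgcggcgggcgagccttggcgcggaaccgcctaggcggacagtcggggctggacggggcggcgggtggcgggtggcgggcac
Nusap1, chr2:119618098-119618297, plus strand: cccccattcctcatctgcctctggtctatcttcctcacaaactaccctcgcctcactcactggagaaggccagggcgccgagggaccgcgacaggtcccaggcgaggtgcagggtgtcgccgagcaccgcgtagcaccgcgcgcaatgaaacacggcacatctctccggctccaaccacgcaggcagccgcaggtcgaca
Kif11, chr19:37376182-37376381, plus strand: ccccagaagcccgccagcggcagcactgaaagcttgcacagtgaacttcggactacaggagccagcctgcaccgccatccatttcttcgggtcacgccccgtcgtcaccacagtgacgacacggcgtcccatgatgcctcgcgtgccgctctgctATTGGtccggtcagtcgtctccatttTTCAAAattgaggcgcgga
Top2a, chr11:99024190-99024389, minus strand: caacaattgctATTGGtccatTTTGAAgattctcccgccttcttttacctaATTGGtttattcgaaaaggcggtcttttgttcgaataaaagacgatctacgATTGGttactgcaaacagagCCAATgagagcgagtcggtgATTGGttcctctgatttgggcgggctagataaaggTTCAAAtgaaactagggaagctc
Ncapg, chr5:45669725-45669918, plus strand: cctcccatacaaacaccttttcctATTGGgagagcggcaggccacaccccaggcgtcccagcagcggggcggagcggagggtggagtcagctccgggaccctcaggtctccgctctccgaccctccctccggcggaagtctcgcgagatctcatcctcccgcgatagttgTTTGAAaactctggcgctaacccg
Smc2, chr4:52439021-52439220, plus strand: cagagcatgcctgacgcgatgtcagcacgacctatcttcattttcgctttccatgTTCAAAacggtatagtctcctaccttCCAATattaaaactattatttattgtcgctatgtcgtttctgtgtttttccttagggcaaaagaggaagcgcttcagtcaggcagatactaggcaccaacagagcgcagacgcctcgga
The stretch of Mki67 held 5 matches, with CCAAT letters at -188, -166 and -141 from the start and TTTGAA at -116 and -98. That of Top2a held 7, and those of Kif11, Ncapg and Smc2 held 2 each, 1 of CCAAT and 1 of TTTGAA. That of Nusap1 held 0. Whether such matches go with the fold changes of the members was not tested. A stretch with no match says only that these letters are not there.

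The title letters F and M cross the arms, with 1 library of each letter in each arm, so the difference could be read within each letter. KO26F over WT25F was above 0 for 40 of 45 genes, against 50.0% of all genes, with a median log2 ratio of 0.13. KO23M over WT22M was above 0 for 38, against 51.5% of all genes, with a median of 0.15. Both ratios were above 0 for 33 genes. The 95% counting interval, which covers counting error only, lay above 0 for 19 genes in letter F and 25 in letter M. It lay above 0 in both for 10 genes: Plk1, Aurkb, Ube2c, Tpx2, Nusap1, Prc1, Mki67, Top2a, Smc4 and Ncapd2. Mki67 had ratios of 0.26 (0.19 to 0.34) in letter F and 0.25 (0.16 to 0.33) in letter M. Kif11 had 0.04 (-0.08 to 0.16) in letter F and 0.49 (0.37 to 0.62) in letter M, and Ncapg 0.47 (0.21 to 0.73) and 0.17 (-0.10 to 0.45). The ratios ran in opposite directions for 12 genes. The widest split was in Nuf2, at 0.55 (0.38 to 0.71) in letter F and -0.11 (-0.27 to 0.05) in letter M. With the letter as a term in the edgeR fit, which leaves 1 residual degree of freedom, 1 of 45 genes was called, Mki67 (edgeR adjusted p = 0.0274), where 0.757% of all genes were called. Only Ccnb2 and Cenpa had an interval below 0, both in letter F, and 0 genes did in letter M. Shares of all genes with both ratios above 0, with opposite ratios or with such intervals were not computed. Whether the counts of these kinds set the members apart from other genes is therefore not known.

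**Figure D2:**
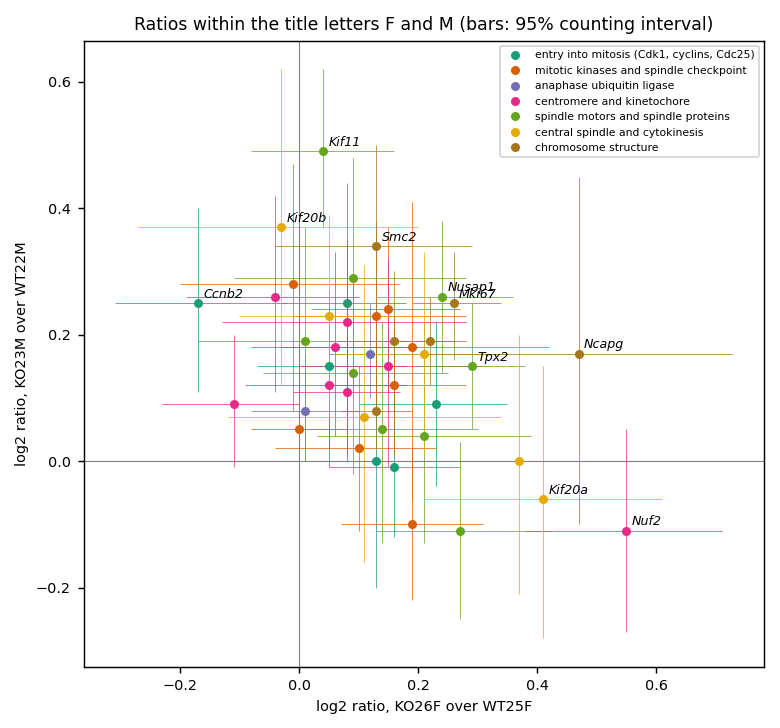
Log2 ratio of KO26F over WT25F (horizontal) against KO23M over WT22M (vertical) for the 45 genes, coloured by role, with bars of the 95% counting interval. Most genes lie in the upper right part of the plot, Kif11 stands out upward at 0.49, and Nuf2 at 0.55 to the right with -0.11 on the vertical axis.

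The libraries also differed by letter in both arms, for the members about as often as for all genes. The F library was the higher one in both arms for 16 genes, against 31.4% of all genes, among them Mki67, Top2a, Tpx2, Nusap1, Prc1, Smc4, Ncapg and Mad2l1. The M library was higher in both arms for 11 genes, against 31.0% of all genes, among them Cdk1, Plk1, Cdc20, Ube2c, Cenpa and Ncapd2. The 16 genes had a median transcript GC content of 43.5%, a median exon length of 6779 bases and a median log2 fold change of KO over carriers of 0.17. The 11 genes had a median GC content of 51.7%, a length of 4329 bases and a log2 fold change of 0.09. Across the 45 genes, the log2 difference of KO minus carriers ran with GC content at Pearson r = -0.49 and Spearman rho = -0.49. The difference KO23M minus KO26F ran with GC at r = 0.42 and rho = 0.36, and WT22M minus WT25F at r = 0.52 and rho = 0.56. Over 9928 protein-coding genes with a mean of at least 10 CPM and a count in every library the values were r = -0.15, 0.37 and 0.40 in the same order. These correlations are across genes that share libraries, and are given as a description. The 45 genes had a median GC content of 45.6%, against 50.6% over those 9928 genes. The 23 members at or below their own median had a median log2 fold change of 0.17, and the 22 above it of 0.10. For log2 exon length, Pearson r across the 45 genes was 0.31, -0.34 and -0.33 in the same order of differences. Over the 9928 genes it was 0.05, -0.44 and -0.22. The part of GC content or exon length in the difference between arms was not tested.

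**Figure D3:**
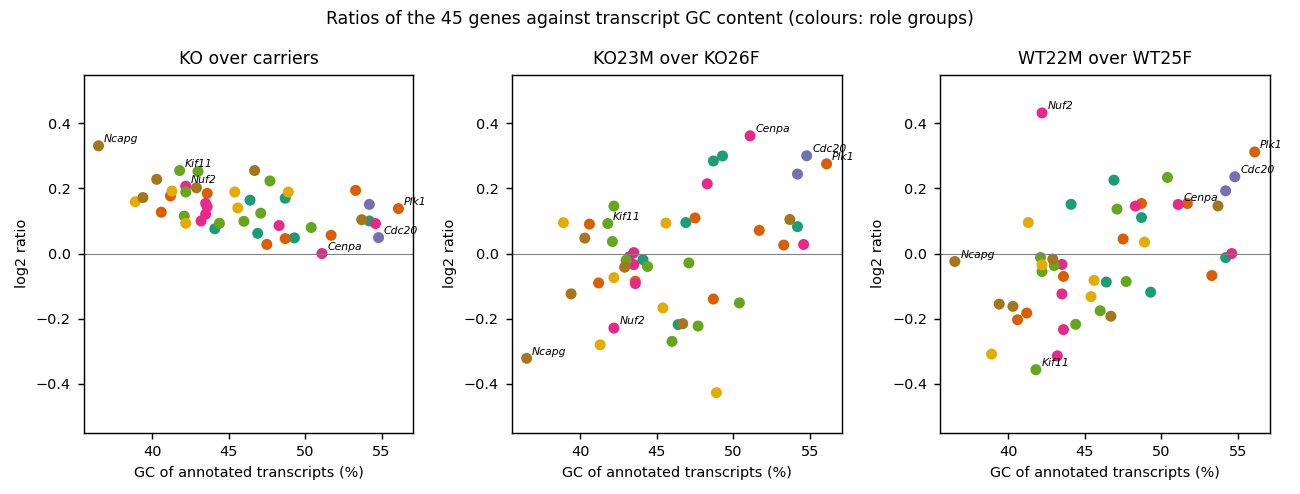
Log2 ratio of each of the 45 genes against the GC content of its annotated transcripts (%), for KO over carriers, KO23M over KO26F and WT22M over WT25F, coloured by role. The first panel slopes down (r = -0.49) with all points at or above 0, and the ratios within an arm slope up (r = 0.42 and 0.52) on both sides of 0.

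KO against WT25F and WT22M against WT25F share the library WT25F, so their values are given side by side. KO against WT25F called 0 of 45 genes, where 0.345% of all genes were called, with 42 genes higher, against 50.9% of all genes, and a median log2 fold change of 0.14. The lowest edgeR adjusted p of a member was 0.766. WT22M against WT25F, a comparison of 2 libraries, called 0 of 45, where 0.714% of all genes were called, with 18 genes higher, against 49.5% of all genes, 27 lower and a median of -0.03. The lowest edgeR adjusted p there was 0.817. Nuf2 had log2 fold changes of 0.44 in KO and 0.43 in WT22M, Plk1 of 0.30 and 0.31, and Kif11 of 0.09 and -0.36. Mki67 had 0.16 in KO and -0.20 in WT22M, and Top2a 0.19 and -0.02. The authors' deposited tables each set 1 library beside WT25F, so their p-values rest on no replicates and share WT25F. In the authors' deposited tables, 0 of 45 genes carried the mark of significance in any comparison, against 1.96% of genes for KO26F, 2.90% for KO23M and 3.62% for WT22M. An adjusted p under 0.05 in the authors' deposited tables was given to 17 genes for KO26F and 10 for KO23M, all higher, and to 16 for WT22M, of which 6 were higher. Those shares stood beside 13.7%, 22.1% and 22.4% of all genes in the same deposited tables.

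Other mitosis genes were listed by function. Of 134 genes in 5 lists, 109 were higher in KO, 25 lower and 0 called, with a median log2 fold change of 0.08, against 0.00 over all genes, and both KO libraries were above both carriers for 48, against 13.9% of all genes. The 36 other kinetochore and checkpoint genes had a median of 0.11. Among them Cenpm, of the inner kinetochore, had 24.7 and 28.2 CPM in KO, against 16.4 and 21.4 in carriers, without overlap, a log2 fold change of 0.49 (SE 0.15). Hjurp, the chaperone that loads Cenpa and the gene of this list with the most counts, had 153 CPM in KO26F and 121 in KO23M, against 190.2 in WT25F and 140.4 in WT22M, a log2 fold change of -0.27 (SE 0.17) with overlapping arms. Of the 30 other kinases and regulators, with a median of 0.09, Fbxo5 (Emi1, an inhibitor of the anaphase ligase) had 27.3 and 27.4 CPM in KO, against 22 and 18.5 in carriers. Foxm1, the transcription factor of the G2/M program, had 119 and 107 CPM in KO, against 96.9 and 96.5 in carriers, a log2 fold change of 0.22 (SE 0.10). The 18 subunits and partners of the anaphase complex, which are present outside mitosis too, had a median of 0.01, with 10 higher and 8 lower. The 32 other spindle and cytokinesis genes and the 18 of cohesin and condensin each had a median of 0.09. Pttg1, securin, ran the other way and had 7.77 and 8.23 CPM in KO, against 15.7 and 9.51 in carriers, a log2 fold change of -0.66 (SE 0.21). WT25F was its highest library. Against WT25F, Pttg1 had a log2 fold change of -0.98 in KO and of -0.73 in the other carrier, WT22M. In KO against carriers Pttg1 passed the test only with the title letter as a term (edgeR adjusted p = 0.0459).

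Of 42 genes of S phase 38 were higher in KO, against 50.7% of all genes, with a median log2 fold change of 0.12 and 0 called. The carriers lay as far apart, with 36 of the 42 higher in WT22M than in WT25F and a median of 0.12. Summed levels were 2566 CPM in KO26F and 2732 in KO23M, against 2299.5 in WT25F and 2548 in WT22M. Rrm2, a subunit of ribonucleotide reductase, had 135 and 129 CPM in KO, against 105 and 96.5 in carriers. Its arms did not overlap, and with the title letter as a term in the edgeR fit its adjusted p was 5.43e-05, against 0.633 without. The fit with the letter leaves 1 residual degree of freedom and called 0.757% of all genes, against 0.0615% without the letter. Of 16 G1 cyclins and Cdk inhibitors, 9 were higher and 7 lower, with a median of 0.06. Of 24 genes of human primary microcephaly 19 were higher, with a median of 0.07. The microcephaly list is not separate from the others, since it holds the member Ncapd2 and also Ncaph of the cohesin and condensin list.

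Markers of the cell types in and around the tissue differed between libraries too. Summed levels of 12 neuronal markers were 6447 and 6780.2 CPM in KO, against 6908 and 6799 in carriers. Of the 12, 9 were lower in KO, with a median log2 fold change of -0.04. The carriers lay further apart, with 10 of 12 lower in WT22M than in WT25F and a median of -0.16. KO23M over WT22M was above 0 for 7 of 12, with a median log2 ratio of 0.01. Tubb3, the one with the most counts, had 2836 and 3232 CPM in KO, against 3035 and 3225 in carriers. Of 12 radial glia markers 8 were higher, with a median of 0.09 and sums of 2219.6 and 2361 CPM in KO, against 2248 and 2318 in carriers. Markers of intermediate progenitors were higher for 9 of 10, at 1087 and 1108 CPM in KO, against 953 and 1018 in carriers. Those of the ganglionic eminence, the ventral telencephalon, were higher for 11 of 11, at 1353 and 1434 CPM in KO, against 1223 and 1197 in carriers. Mesenchyme and meninges markers were lower for 10 of 10, at 347 and 376 CPM in KO, against 438 and 455 in carriers. Microglia markers summed to 89.6 and 98.1 CPM in KO, against 97.6 and 120.4 in carriers (8 of 10 lower), and endothelium markers to 318 and 343 CPM in KO, against 352 and 358 in carriers (9 of 10 lower). Erythroid markers summed to 758 and 709 CPM in KO, against 1022 and 611 in carriers. Carriers differed most from each other in 2 lists. Choroid plexus markers summed to 1021 and 824 CPM in KO, against 971 in WT25F and 219.6 in WT22M, and thalamus and diencephalon markers to 44.1 and 41.3 CPM in KO, against 98.8 in WT25F and 40.5 in WT22M. The part of these markers in the higher mitosis genes was not tested.

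**Figure D4:**
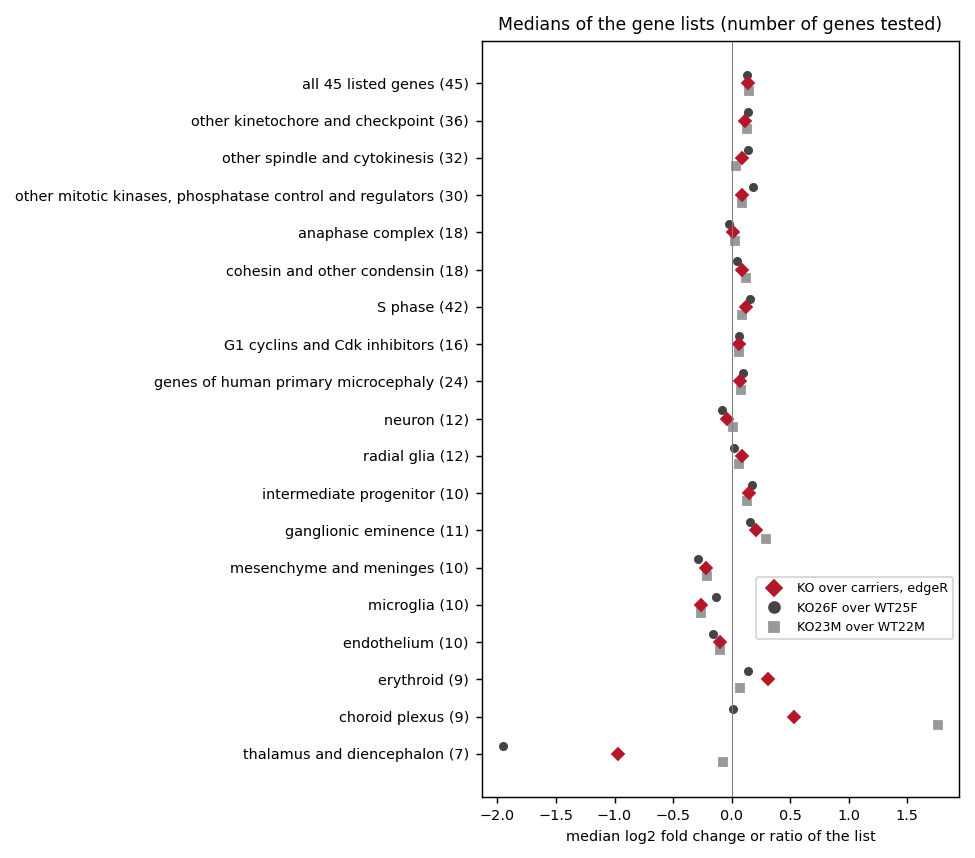
Median log2 fold change of KO over carriers (red), and median log2 ratio within letter F (dark) and letter M (grey), for the 45 genes, 8 other pathway lists and 10 cell type lists, with the number of genes tested. The 45 genes sit at 0.13 to 0.15 in all 3 measures, and the choroid plexus and thalamus lists differ most between the letters. Lists can share genes, and the microcephaly list holds the member Ncapd2.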

How the data were processed

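RNA was counted per gene in 4 libraries (2 KO, 1 WT and 1 with conflicting labels) made with a TruSeq kit from total RNA. The submitters' processing notes name Bowtie2 2.2.3, TopHat2 2.0.12, HTSeq 0.6.0 and mm9. How strand and multimapping reads were handled is not stated there. Positions in the files equal those of GENCODE vM21 on GRCm38 for 20222 of 22084 genes (91.6%) and 42 of the 45 members, so they are given on GRCm38. In 3 tables that set 1 library beside WT25F, the authors deposited whole-number counts per gene, not normalized. Per the file headers they also hold a normalized value in CPM, with a count of 0 written as 0.5 counts, a ratio (fold change), its log2 and a p-value whose test is not named.

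The counts were joined by gene identifier and tested with edgeR 4.0.16 (quasi-likelihood, robust, TMM, filterByExpr, Benjamini-Hochberg, threshold 0.05). A second fit with KO, WT25F and WT22M as separate groups gave the comparisons with WT25F alone; it takes the spread of each lone library to be that of the KO pair. CPM values printed are TMM-scaled. Ratios within a letter have an exact (Clopper-Pearson) 95% interval. Exon length and GC content come from vM21 and promoters from RefSeq. Alternatives tried were DESeq2 1.42.0, voom of limma 3.58.1, RLE size factors, other filters, genes on X and Y left out, the title letter as a block, and each library left out. Versions of R and Python were 4.3.3 and 3.11.15. The edgeR fits without the title letter were tried on simulated counts, with changes larger than those of the members, and the other steps were not. The members and lists were chosen with earlier results of these data known. Values in all libraries were given for the 12 members with the smallest p, the most abundant of each role, members called in any comparison and members below 0; outside the list, for up to 3 genes of a list by smallest p and, for some lists, the gene with the most counts. Ccna2, Ccnb2, Plk1, Cdc20, Cenpa, Nuf2, Kif20a, Ect2 and the genes with a single library's value were named after their values were seen. Of 365 list symbols, 1 was not found in the tables and 3 did not pass the filter.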

Additional observations from a re-analysis of the deposited data

Results flagged for a closer look

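Ccnb2 was lower in KO26F than in WT25F, at a log2 ratio of -0.17 (-0.31 to -0.02), and higher in KO23M than in WT22M, at 0.25 (0.11 to 0.40), with 95% counting intervals that lie on opposite sides of 0. The difference of the ratios was -0.42. It was picked out because the 2 letters moved in opposite directions, and with 1 library per letter and arm the difference was not tested.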

How the results depend on the processing

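The count of members past the threshold in KO against carriers was 0 with DESeq2, with RLE size factors, with voom, without a filter, with 1 CPM required in 2 libraries, without the X and Y genes and without any 1 of the libraries. With the title letter as a replicate block, which leaves 1 residual degree of freedom, it was 1, Mki67 (edgeR adjusted p = 0.0274), and the next lowest adjusted p was 0.136; 123 genes in all (0.757%) were then called, against 10 without the block. The letters are not a labelled pairing, and libraries of a letter deviated together with r = 0.193 over 14289 genes. The median of the 45 was 0.12 to 0.17 with a library left out. The number of genes on the higher side was 41 and 39 on leaving out KO26F and KO23M, and 36 and 42 on leaving out WT25F and WT22M. Genes of the other lists past the threshold were 0 with all libraries, 13 with the block (among them Cenpm, Hjurp, Pttg1, Rrm2, Mfng, Dlx2 and Col1a2), 1 and 2 on leaving out KO26F and KO23M, and 11 and 7 on leaving out WT25F and WT22M. These counts on the higher side and in the other lists were chosen after seeing the data. With a library left out, the fold change reached -0.01 or lower for 13 genes above 0 with all libraries, and for Cenpa it ranged from -0.19 to 0.17. The ranges of the 13 were -0.11 to 0.19 for Ccnb2, -0.05 to 0.18 for Cdc25c, -0.01 to 0.30 for Plk1, -0.02 to 0.14 for Aurka, -0.03 to 0.12 for Bub1b, -0.03 to 0.08 for Bub3 and -0.11 to 0.19 for Cdc20. They were -0.05 to 0.26 for Spc25, -0.03 to 0.19 for Birc5, -0.04 to 0.20 for Kif2c, -0.01 to 0.20 for Aspm, -0.05 to 0.23 for Ckap2l and -0.05 to 0.39 for Kif20a. All-gene calls in KO against carriers were 48 or 65 on leaving out KO26F or KO23M, and 100 or 59 on leaving out WT25F or WT22M. In KO against WT25F they were 56, but 23 with DESeq2, 0 with no filter and 6 with the spread of the 2 arms. In WT22M against WT25F they were 116, but 33, 0 and 0. The cause was not tested. With 2 libraries an arm, standard errors of 0.10 to 0.17 limit what differences of this size can show.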
